A study of Saccharomyces cerevisiae with 6 samples.

Results

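The pericentromere of chromosome XIV of budding yeast was described here as the listed 20 bp bins that start within 20 kb of the middle of its centromeric gap (XIV, 609119 to 649119 on build R64). The gap is the 1005 bp between DOM34, the innermost gene of the left arm, and CIT1, the innermost gene of the right arm (628617 to 629621), and the centromere lies somewhere inside it. Of the 14224 bins in the authors' deposited table, 368 met this rule, where 9.18% of the bins that the false discovery rates imply were tested passed over all chromosomes. The rule used position only, but every bin in the table had already passed the authors' test at a false discovery rate under 0.05, so what follows describes bins that passed. Rec8 was mapped by ChEC-seq, in which a protein fused to micrococcal nuclease cuts the DNA next to it once calcium is added, and the released fragments are sequenced. The compared cultures were 3 ctf19-9A diploids and 3 diploids called WT, for which no CTF19 mutation is listed, each from a colony of its own zygote. All 6 carried Rec8-3xFLAG-MNase and ndt80-delta, so the WT also lacks NDT80, the transcription factor gene needed to leave meiotic prophase I. Cultures spent about 16 h in YP acetate and 4.5 h in 1% potassium acetate, and received 2 mM CaCl2 for 5 min. A free-nuclease control was not used here.

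Rec8 is the meiotic kleisin of cohesin, the ring complex that holds sister chromatids together. Ctf19 belongs to the inner kinetochore, its phosphorylated N-terminal tail binds the cohesin loader, and in the ctf19-9A allele phosphorylated residues of that tail are changed to alanine. Cohesin loaded at the kinetochore is known to spread into the flanking chromatin and to gather where 2 genes are transcribed towards each other, and such convergent pairs are known to bound the pericentromere in yeast. The question the design implies is how Rec8 around centromeres differs between ctf19-9A and WT.

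The table holds 1 log2 fold change, p-value and false discovery rate per bin and no value for a single culture, so levels in each sample cannot be shown, depth is unknown and no spread between replicates can be given. The standard error (SE) beside a log2 fold change is that implied by its two-sided p-value, and stands for the error between the 3 and 3 cultures as the authors' test modelled it. Medians are over bins that passed the threshold and not over all bins. The direction of the fold change is not stated in the headers or labels. It is taken here as likely ctf19-9A over WT, because Ctf19 is known to recruit cohesin to centromeres and the values around centromeres are mostly negative. A negative value then means less cleavage by Rec8-MNase in ctf19-9A. If the ratio ran the other way, higher and lower would change places throughout. Read as ctf19-9A over WT, the median negative bin of this pericentromere had 52.1% of the WT signal in ctf19-9A and the lowest bin 35.2%. With the ratio turned, WT would have 52.1% and 35.2% of the ctf19-9A signal in the same bins.

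The change was almost wholly negative, and most of it lay on the left arm. Of the 368 bins, 366 were negative and 2 positive. The negative bins filled 18.3% of the 2000 positions of 20 bp in the 40 kb, where 0.925% of all positions of the annotated chromosomes were negative bins. Of the 154927 bins that the false discovery rates imply were tested in the whole table, 3.60% were negative and 5.58% positive. Which of the 2000 positions were tested is not known, so an unlisted position may be untested or may have missed the threshold. The median of the negative bins was -0.94 (quartiles -1.12 and -0.70, median SE 0.187). On the left arm 284 bins were negative, with a median of -1.04 and 158 of them at -1 or lower, and on the right arm 82 were negative, with a median of -0.62 and 2 of them at -1 or lower. The median SE of the listed negative bins was 0.187 on each arm, and the SE of unlisted positions is not known. At a false discovery rate under 0.01, 261 negative bins were left on the left arm and 27 on the right arm. Of the implied tested bins of all chromosomes, 0.489% were negative bins at -1 or lower.

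**Figure D1:**
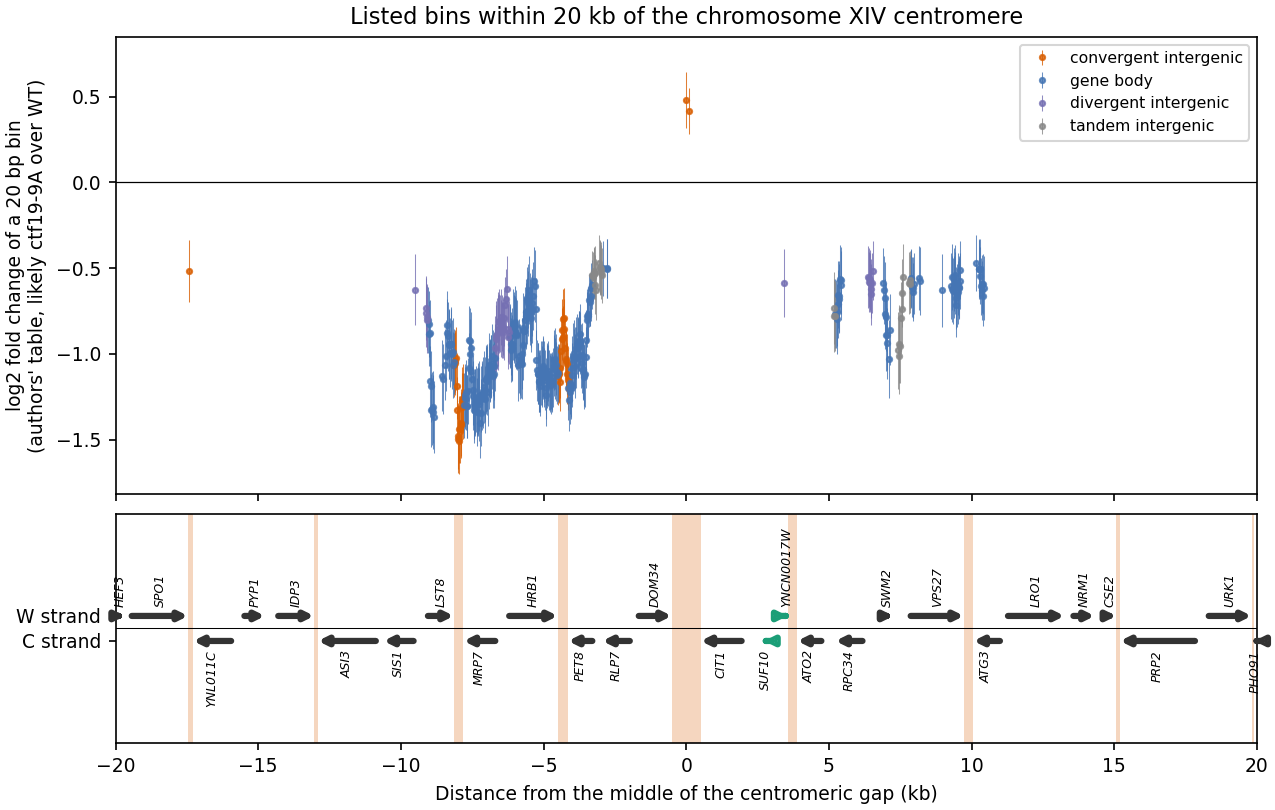
Log2 fold change of each listed bin (y axis, error bars are implied SE) against distance from the middle of the centromeric gap in kb (x axis), coloured by whether the bin lies in a gene or in convergent, divergent or tandem intergenic sequence. Arrows below show genes by strand, with tRNA genes in green and convergent stretches shaded, the centromeric gap among them. Of the 284 negative left-arm bins, 283 form 1 dense block, and the 82 of the right arm lie in short groups nearer to 0.

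The bins lay mostly between 2 and 12 kb from the centre. The left arm had 51 negative bins at 2 to 4 kb, 96 at 4 to 6 kb, 97 at 6 to 8 kb and 39 at 8 to 10 kb, each out of 100 positions. Medians in these bands were -0.80, -1.07, -1.12 and -1.01. Beyond 10 kb the left arm had a single bin, 17.4 kb out. The right arm had 1 negative bin at 2 to 4 kb, 14 at 4 to 6 kb, 36 at 6 to 8 kb, 20 at 8 to 10 kb and 11 at 10 to 12 kb. Right-arm medians from 4 kb outward were -0.72, -0.62, -0.61 and -0.59. Within 2 kb of the centre no bin on either arm was negative.

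The left block ran from the promoter side of LST8 to the 3′ end of RLP7 (619621 to 626360) and held 283 of the 284 left-arm bins. Joined wherever no more than 500 bp separated 2 bins, it spanned 6740 bp, and 84.0% of its positions were listed. It holds 4 genes in 2 convergent pairs, LST8 with MRP7 and HRB1 with PET8, placed back to back. LST8 encodes a subunit of the TOR kinase complexes, MRP7 a protein of the large mitochondrial ribosomal subunit, HRB1 an RNA-binding protein of mRNA export and PET8 the mitochondrial carrier of S-adenosylmethionine.

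The outer pair, LST8 and MRP7 (620067 to 622428), carried the lowest values. Its 98 bins had a median of -1.19, and 82 of them were at -1 or lower. The 334 bp between the 2 genes (620979 to 621312), 8.0 kb from the centre, was covered whole by 17 bins with a median of -1.31. In the authors' deposited table the lowest value was -1.51 (SE 0.195, adjusted p 1.31e-10) at 621141 to 621160, which was also the lowest of the window. The values in this gap ran through 1 trough, with -1.03 (SE 0.184) as the weakest bin on the LST8 side in the authors' deposited table. Lowest minus weakest was -0.48, with an SE of 0.268 if the errors are taken as independent, or 1.8 times that SE. Both bins were chosen as extremes of the gap. MRP7 had 54 bins over 96.8% of its length with a median of -1.22, and its lowest bin in the authors' deposited table was -1.41 (SE 0.202, adjusted p 4.84e-09), inside the gene at 621881 to 621900. LST8 had 27 bins over 59.2% of its length with a median of -1.003. Its lowest bin, in the authors' deposited table -1.37 (SE 0.211, adjusted p 3.92e-08), lay nearer to its 5′ end at 620261 to 620280, next to 14 unlisted positions (620281 to 620560) after which the table resumes at -1.13 (SE 0.205). The lowest bins of the gap, of MRP7 and of LST8 thus lay within 0.14 of each other, less than 1 SE, but each was chosen as an extreme.

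The inner pair, HRB1 and PET8 (622915 to 625829), was the most evenly filled. Its 141 bins took up 97.2% of its positions and had a median of -1.02, and 76 were at -1 or lower. The 353 bp between them (624622 to 624974), 4.3 kb from the centre, was again covered whole, by 18 bins with a median of -1.04. Here the gap held no trough. In the authors' deposited table its values were -1.16 (SE 0.171) at 624681 to 624700 and -1.15 (SE 0.177) at its PET8 end, with -0.79 (SE 0.177) between them at 624821 to 624840. That difference of -0.37 has an SE of 0.246 if the errors are taken as independent, so it is 1.5 times its SE. Its bins were also chosen as extremes, and the shapes of the 2 gaps were not tested against each other. The lowest bins of the genes in the authors' deposited table lay on either side of the gap, -1.24 (SE 0.179, adjusted p 4.97e-09) in HRB1 at 624181 to 624200 and -1.27 (SE 0.184, adjusted p 6.26e-09) at the 3′ end of PET8 at 625001 to 625020. The lowest bin between LST8 and MRP7 was lower than that of PET8 by 0.24 on the log2 scale, with an SE of 0.268 under the same assumption. Both were chosen as the lowest of many bins, which this SE does not allow for. Whether the 2 pairs differ in their lowest value was not tested.

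**Figure D2:**
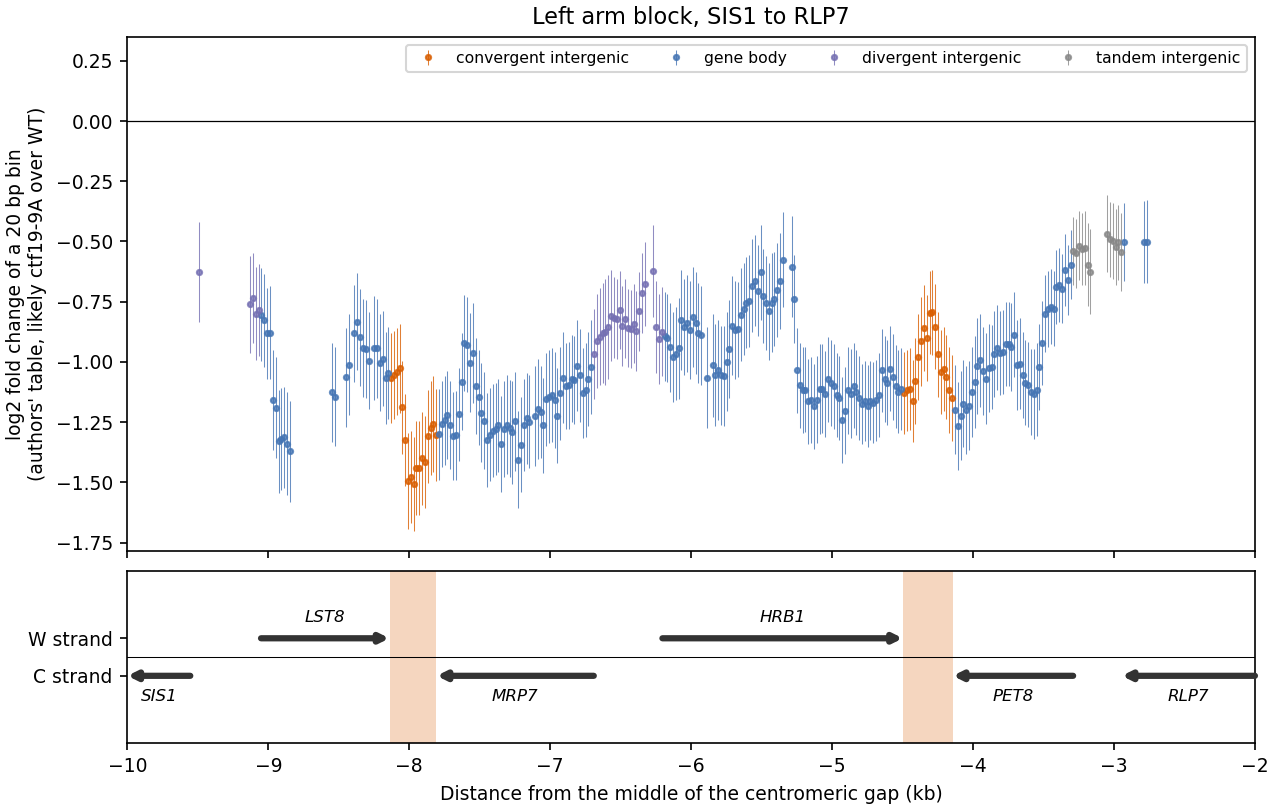
The left-arm block at higher scale, with the log2 fold change of each bin (y axis, error bars are implied SE) against distance from the centre in kb (x axis) and the genes and shaded convergent gaps below. One trough of -1.51 falls inside the gap between LST8 and MRP7, while the gap between HRB1 and PET8 rises to -0.79 in its middle between lower values on both sides. These shapes were not tested.

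In 3 of these 4 genes the bins nearer to the 3′ end had the lower median. Medians of the bins nearer to the 3′ end and of those nearer to the 5′ end were -1.12 and -0.85 in HRB1, -1.02 and -0.89 in PET8 and -1.26 and -1.14 in MRP7. LST8 went the other way, with -0.99 over the 16 bins nearer to its 3′ end and -1.19 over the 11 nearer to its 5′ end. These medians describe listed bins, and no test was made between the ends of a gene. The median SE of a bin was 0.186 in HRB1, 0.178 in PET8, 0.194 in MRP7 and 0.204 in LST8. Only in HRB1 did the medians of the 2 ends differ by more than this, and LST8 came close in the other direction. The SE of 1 bin is not the error of a difference between 2 medians, so HRB1 is not set apart by it. The 5′ end of PET8 also faces the inner edge of the block, so gene end and place in the block cannot be told apart there. Along HRB1 the values came closest to 0 near the middle of the gene, with -0.58 (SE 0.197) at 623761 to 623780 in the authors' deposited table. Between the gene's lowest bin and this weakest one, as lowest minus weakest, the difference was -0.67 with an SE of 0.266, or 2.5 times that SE, and both were chosen as extremes of the same gene.

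In the left-arm block, medians were nearer to 0 between divergent genes than in the gaps LST8–MRP7 and HRB1–PET8. The median SE of a bin was 0.175 in MRP7–HRB1 and 0.176 in HRB1–PET8, and the difference was not tested. Bins nearer to the 5′ end of HRB1 also had a median of -0.85, and the tandem stretch PET8–RLP7 had -0.53. In these medians, class and place in the block cannot be told apart. The 486 bp between MRP7 and HRB1, where both genes start, held 23 bins over 94.7% of its length with a median of -0.85, and none of them reached -1. In the authors' deposited table these ranged from -0.97 (SE 0.188) beside MRP7 to -0.62 (SE 0.192). The 501 bp between SIS1 and LST8 held 5 bins with a median of -0.76. SIS1 itself, which encodes an Hsp40 chaperone, held none, so the outer edge of the block fell in this promoter region, 9.5 kb from the centre. On the left arm as a whole, leaving out the gap that holds the centromere, negative bins covered 73.2% of convergent, 31.8% of divergent and 19.98% of tandem intergenic sequence, and 22.7% of gene length. Gene length here includes all of HEF3, most of which lies outside the window, so the gene share is lower than it would be within the window. The convergent share rests on 984 bp in 4 stretches, of which LST8–MRP7 and HRB1–PET8 lie inside the block. There MRP7, HRB1 and PET8 were covered over 96.8%, 94.9% and 98.3% of their length, near the 94.7% of MRP7–HRB1 and the 100% of both convergent gaps. Less was covered of LST8 (59.2%), PET8–RLP7 (75.6%), SIS1–LST8 (19.96%) and RLP7 (6.19%). The shares of the whole arm thus mix class with place in or outside the block.

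The inner edge of the block was shallow. Between PET8 and RLP7, 2 tandem genes on the C strand, 13 bins had a median of -0.53. RLP7, for a nucleolar protein of large ribosomal subunit assembly, held 3 bins near its 3′ end, all at -0.50 in the authors' deposited table (SE 0.161 to 0.173). From there to the gap, through the rest of RLP7 and all of DOM34, which encodes a factor that frees stalled ribosomes, no bin was listed.

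The only positive bins of the window lay near the middle of the centromeric gap, and their place relative to the centromere itself is not known here. The gap between DOM34 and CIT1 held 2 bins, both positive, with 0.48 (SE 0.164, adjusted p 0.0415) at 629101 to 629120 in the authors' deposited table and 0.42 (SE 0.133, adjusted p 0.0281) at 629221 to 629240. They do not touch, cover 3.98% of the gap, and neither passed a false discovery rate of 0.01. Over all chromosomes, 5.58% of the implied tested bins were positive, and the other 15 windows held a median of 2 positive bins (range 0 to 15), so nothing is read from their number. The higher one stood for 140% of the WT signal in ctf19-9A, or, with the ratio turned, for 140% of the ctf19-9A signal in WT. CIT1, for the mitochondrial citrate synthase, held no bin.

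The right arm had a weaker and broken pattern. After CIT1 came 2 tRNA genes, SUF10 and YNCN0017W, which held no bin, with 1 bin between them to which the authors' deposited table gives -0.59 (SE 0.199, adjusted p 0.04). ATO2, an ammonium export gene, held none. The first group of touching bins lay at the 3′ end of RPC34, which encodes a subunit of RNA polymerase III, and the adjoining sequence, with 14 bins from 634281 to 634560 and a median of -0.72. All 11 bins inside RPC34 lay towards its 3′ end, and the lowest value in the authors' deposited table was -0.80 (SE 0.202, adjusted p 0.00354).

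The lowest right-arm values lay around SWM2, a gene for a protein of small RNA cap modification, and just past its end. SWM2 held 10 bins over 45.4% of its length with a median of -0.82. Its lowest bin in the authors' deposited table was -1.03 (SE 0.229, adjusted p 0.000508) at 636201 to 636220, and the tandem stretch towards VPS27 reached -1.01 (SE 0.222, adjusted p 0.000413) at 636581 to 636600. Between these groups 13 positions (636281 to 636540) were unlisted, with -0.86 (SE 0.207) and -0.98 (SE 0.224) on either side in the authors' deposited table. The SE of the SWM2 bin was the largest of all negative bins of the window. Set against it, the lowest bin of the left arm was lower by 0.48 on the log2 scale, with an SE of 0.300 if errors are independent, or 1.6 times its SE. Both bins were chosen as the lowest of their arm, which this SE does not allow for. Whether the arms differ in their lowest values was not tested.

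VPS27 and ATG3 form the only right-arm convergent pair with listed bins. These were placed differently from those of the 2 pairs in the left block. VPS27 encodes a subunit of the endosomal sorting complex that starts multivesicular body formation, and ATG3 the enzyme that attaches Atg8 to lipid in autophagy. VPS27 held 26 bins with a median of -0.61, of which 18 lay nearer to its 3′ end, and ATG3 held 11 bins with a median of -0.59, all of them nearer to its 3′ end. The 327 bp between them held no listed bin, whereas both gaps of the left block were covered whole. Whether the positions of the VPS27–ATG3 gap were tested is not known. In the authors' deposited table the lowest bins were -0.72 (SE 0.182, adjusted p 0.00361) in VPS27 and -0.66 (SE 0.173, adjusted p 0.00503) in ATG3, where the negative bins of the right arm ended, 10.4 kb from the centre. No negative bin of the right arm lay in convergent intergenic sequence, out of 4 such stretches of 878 bp in all. The left arm had 36 bins in 3 of 4. Negative bins filled 8.2% of right-arm and 28.4% of left-arm positions. On the right arm they covered 9.58% of divergent and 11.3% of tandem intergenic sequence and 6.97% of gene length. This gene share is likewise lowered by PHO91, counted whole though most of it lies outside the window. CSE2–PRP2 and URK1–PHO91, 2 of the 4 right-arm stretches, lay 15.1 and 19.9 kb out, beyond the last negative bin. Nothing is read from the lack of bins in so short a length.

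**Figure D3:**
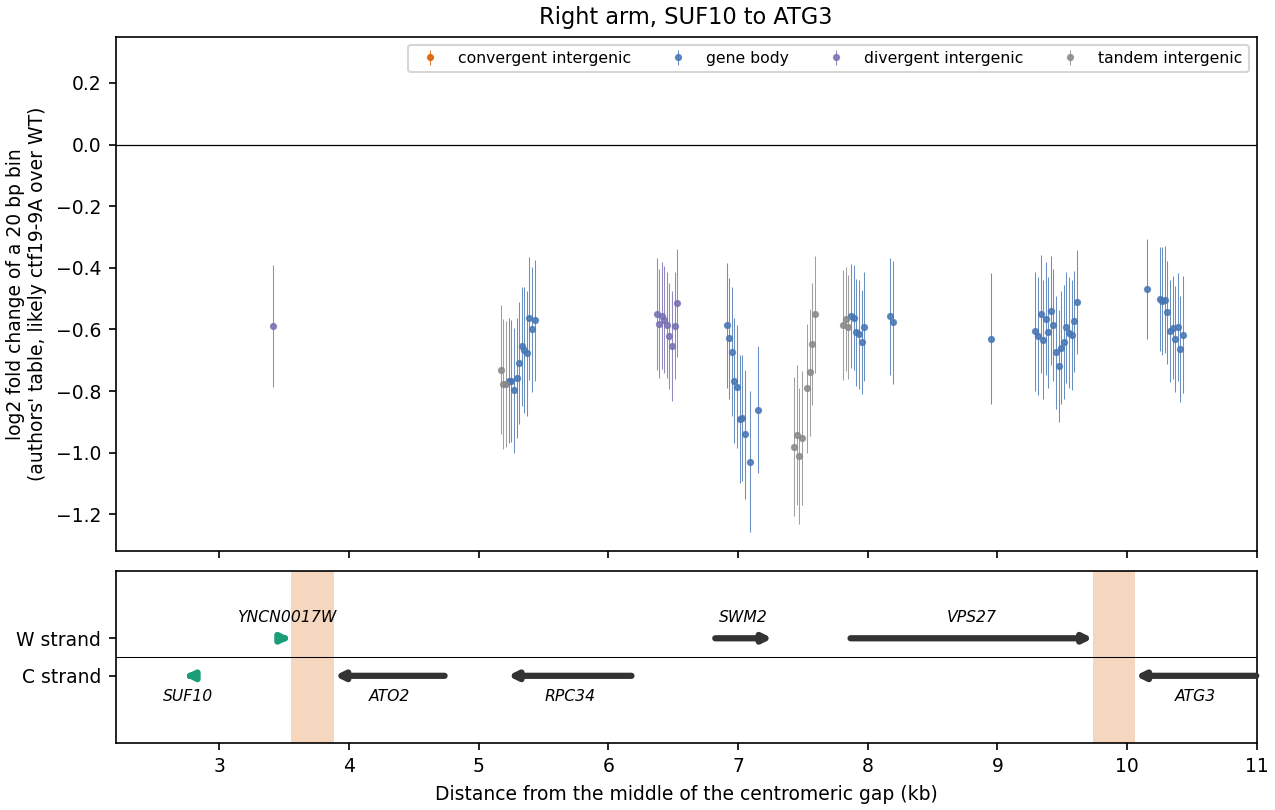
Right-arm bins from SUF10 to ATG3, with the log2 fold change of each bin (y axis, error bars are implied SE) against distance from the centre in kb (x axis), genes by strand and shaded convergent gaps below. Bins at the 3′ ends of VPS27 and ATG3 flank a gap with no listed bin, and the lowest values, -1.03 and -1.01, lie in SWM2 and just past it.

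Outside these blocks the window was nearly empty. On the left arm HEF3, SPO1, YNL011C, PYP1, IDP3, ASI3 and SIS1 held no bin, and the convergent gap between IDP3 and ASI3, 13.0 kb from the centre, held none. The single outer bin lay between the convergent genes SPO1, a meiotic gene, and YNL011C, at 611681 to 611700, where the authors' deposited table gave -0.52 (SE 0.182) and an adjusted p of 0.0498, just inside the threshold. On the right arm LRO1, NRM1, CSE2, PRP2, URK1 and PHO91 held none, nor did the convergent gaps between CSE2 and PRP2 and between URK1 and PHO91. Counted over genes that overlap the window, 9 of 27 (33.3%) held a negative bin and none a positive one, against 150 of 352 (42.6%) in the same windows of the other 15 chromosomes. Beyond the window the nearest bins were positive and far away, 67.1 kb to the left with a value of 0.40 (SE 0.138) and 50.8 kb to the right with 0.50 (SE 0.166) in ALG12, both in the authors' deposited table. All 366 negative bins of chromosome XIV lay inside the window.

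**Figure D4:**
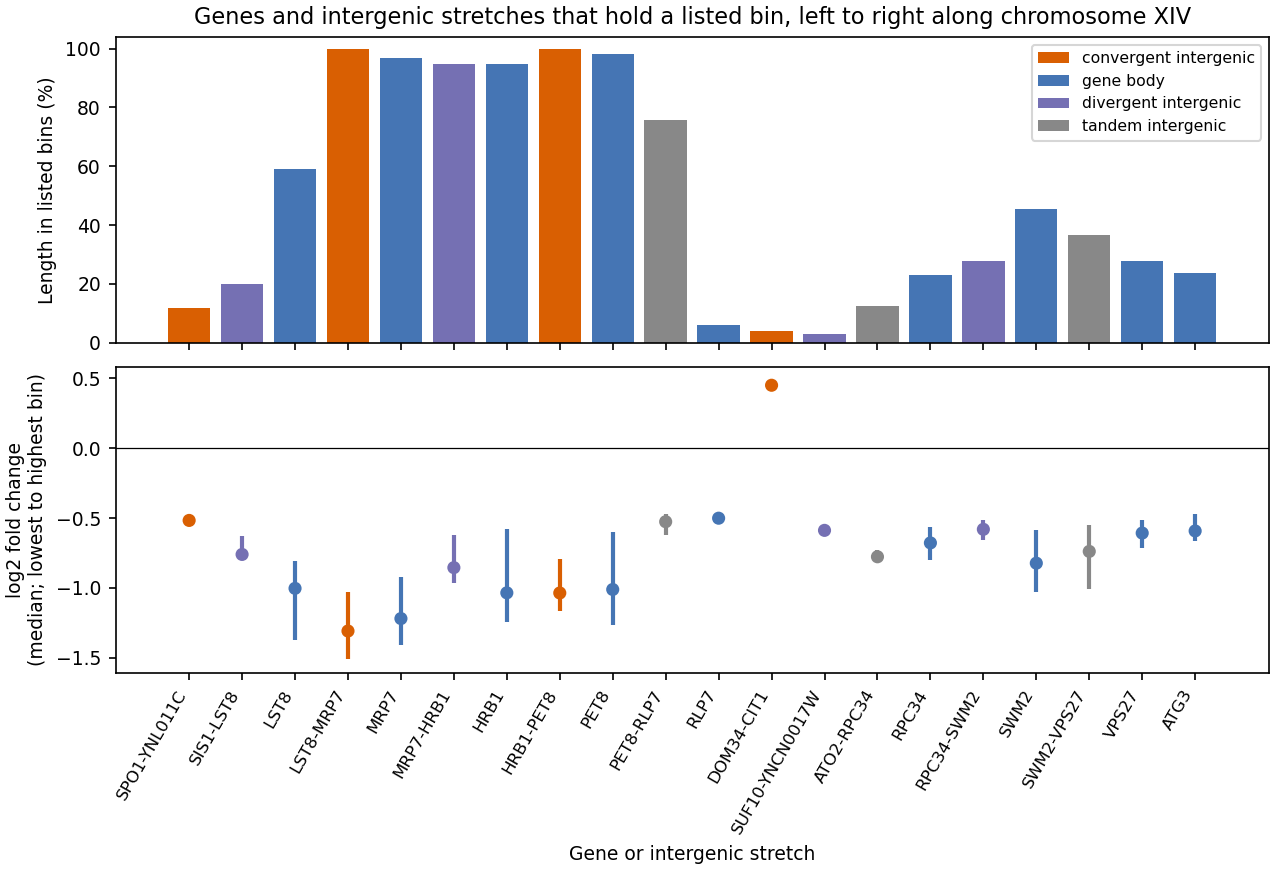
For each gene or intergenic stretch with a listed bin, ordered from left to right along the chromosome, the share of its length in listed bins in percent (upper bars) and the median log2 fold change (lower points) with lines from the lowest to the highest bin. The convergent gaps LST8–MRP7 and HRB1–PET8 reach 100% and the highest right-arm share is 45.4%, in SWM2.

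Set beside the other 15 centromere regions, chromosome XIV came first by the median of its negative bins and by their share at -1 or lower, second by its lowest bin (-1.51, after -1.55 on II) and not first by their number. Its median of -0.94 was the lowest of the 16, where the other 15 ranged from -0.86 on VIII to -0.56 on IX. These medians are over bins that passed, and a bin with a larger SE needs a larger change to pass. The median SE of listed bins was 0.187 on XIV, in place 2 of 16 from the highest. The other 15 had 0.168 to 0.191 with a median of 0.180, and the bearing of this on the order was not tested. The share of negative bins at -1 or lower was 43.7% on XIV and between 0% on I and 26.9% on XIII elsewhere, and XIV held 160 of the 757 such bins of the whole table (21.1%). By number of negative bins it was the seventh of 16 (the fifth at a false discovery rate under 0.01), with 366 against a median of 327 over the others (range 105 to 537). Taken as 32 arms, its left arm was the third by median after the left arm of II (-1.13) and the right arm of IV (-1.06), and its right arm the 24th. At 4 to 8 kb from the centre its left arm had 193 of 200 positions listed, second to the left arm of V with 195, where the other 30 arms had a median of 74. The right arm had 50 there. The left arm held 77.6% of the negative bins of XIV, the fourth most one-sided towards the left, with shares from 23.9% on VII to 87.9% on III in the others. Between 20 and 50 kb XIV was the only chromosome with no listed bin of either sign, where the others had 1 to 111. These are places in an order, and no test was made, since XIV is 1 chromosome and bins of 1 chromosome are not replicates.

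**Figure D5:**
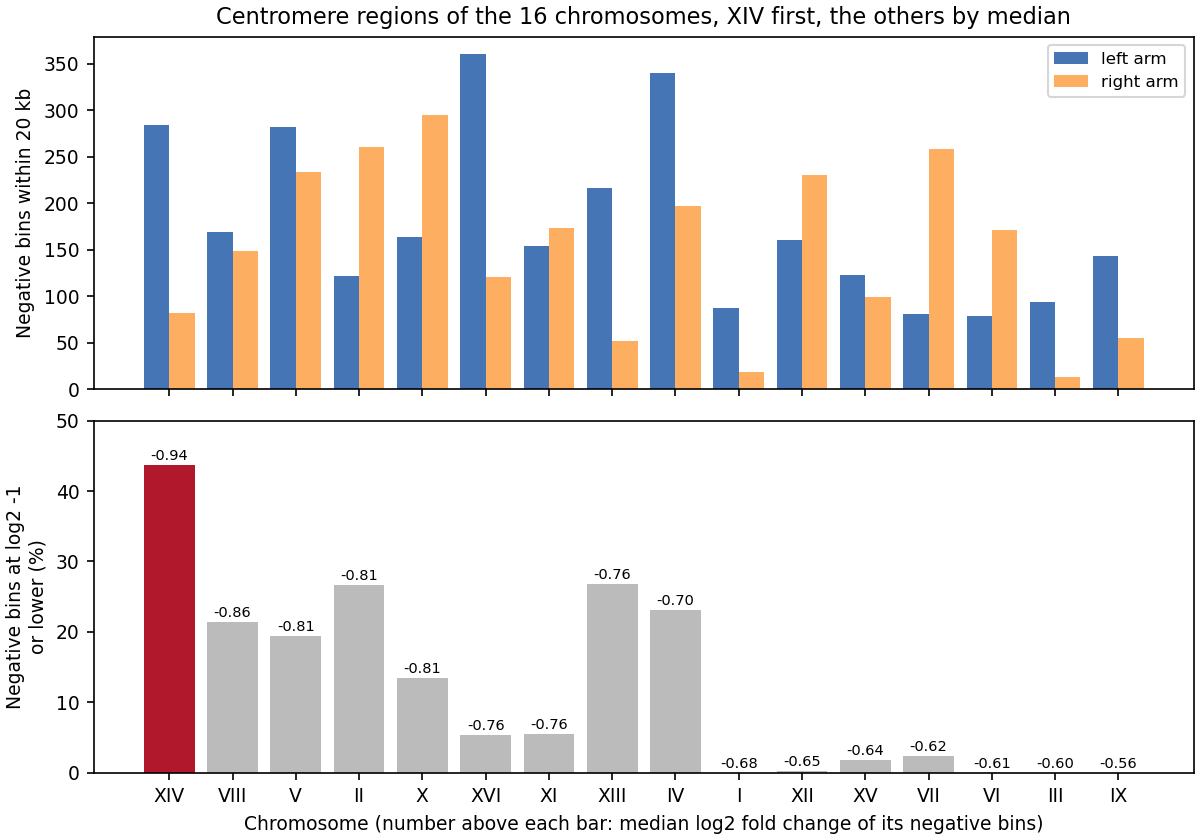
Negative bins within 20 kb of the centre on the left and right arm of each chromosome (upper bars) and the share of negative bins at a log2 fold change of -1 or lower in percent (lower bars), with the median log2 fold change of the negative bins printed above each. XIV stands at the left with 284 and 82 bins, 43.7% and a median of -0.94, and the other 15 follow by median.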

How the data were processed

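Rec8 ChEC-seq of 3 ctf19-9A and 3 WT cultures had been compared by the authors. Their deposited table gives for each 20 bp bin, per the file headers, the log2 fold change (plain and shrunken) and the p-value with its false discovery rate. Builds R64 and sacCer3 and the tools DESeq2, deepTools 3.4.3, Bowtie2 2.5.0 and FastQC 0.11.9 come from the submitters' processing notes, while settings and read filters were not found in these sources. Every listed false discovery rate was under 0.05. Depth per sample is unknown, and no test across samples was made.

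Bins were joined to the RefSeq gene table of R64 by their middle, with Python 3.11.15, pandas 2.3.3 and scipy 1.17.1. Strand was read from systematic names. The SE is the size of a log2 fold change over the normal deviate of its p-value. The number of tested bins assumes Benjamini-Hochberg adjustment. These steps were tested on simulated data. Named were all genes with a bin, flanks of convergent stretches, innermost genes and, as chosen after seeing values, the weakest bins and the comparison of arms. The members, lists and comparisons were chosen with earlier results of these data known. Alternatives were a stricter false discovery rate, a minimum size, other windows, shrunken values, overlap in place of the middle and wider merging. No genome sequence was used here.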

Additional observations from a re-analysis of the deposited data

How the results depend on the processing

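With a false discovery rate under 0.01 the window kept 288 negative bins, but those of the right arm numbered 27 in place of 82 and no positive bin was left (0 in place of 2). With a minimum log2 size of 0.75 the right arm had 18 negative bins, again 0 were positive, and 13.4% of negative bins were convergent intergenic in place of 9.84%. The authors' shrunken log2 fold changes gave a median of -0.67 in place of -0.94 and a lowest bin of -1.08 in place of -1.51, at the same position. Touching bins formed 28 negative stretches, which became 15 when merged across up to 100 bp and 7 across up to 500 bp. By number of negative bins XIV was in place 7 of 16, in place 4 within 10 kb and in place 5 at the stricter rate, while its place by median was 1 within 10 kb as within 20 kb. A window of 30 kb and overlap in place of the bin's middle were also tried. Over all alternatives, 31 values stayed within 1.5 times for counts or within the error of the reported value, and 11 moved. The 30 kb window could change no value, since XIV has no listed bin between 20 and 30 kb. Its unchanged values are thus no check. Genes with a negative bin fell from 9 to 6 at the minimum size, which is at the 1.5 limit. Leaving out replicates could not be run, since the table has no values per sample. No paired analysis was possible because the result comes from the authors' comparison, which holds no column for a replicate. Distances run from the middle of the gap that holds the centromere, so they are uncertain by up to 502.5 bp.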

Other observations

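Values in the left block went up and down along the sequence. Taking a trough as the lowest bin within 500 bp on either side with at least 5 listed bins there, the left arm had 6 troughs, in LST8, between LST8 and MRP7, in MRP7, at 2 places in HRB1 and in PET8, spaced 0.74 to 1.34 kb apart. The weakest bins between neighbouring troughs lay between -0.92 and -0.58 on the log2 scale, 1.56 to 1.84 times the SE of the difference above the shallower trough if errors are independent. By the same rule the right arm had 4, in RPC34, SWM2, VPS27 and ATG3, 0.94 to 2.38 kb apart. There the weakest listed bins were only 0.70 to 1.06 times the SE of the difference above the shallower trough. Between right-arm troughs 30 to 88 positions were unlisted, against 0 to 19 on the left arm. Trough and weakest bins were picked as extremes, which these SEs do not allow for. The trough rule was chosen after the values were seen, and no test was made.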
